A study of Mus musculus with 4 samples.

Results

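The nuclei described here were those that the authors' annotation placed in the main neuronal cluster (Neurons_1) and named MCH Neurons, leaving out nuclei that carried vascular transcripts or many Pmch transcripts. They numbered 1582 of the 56386 annotated nuclei, with 421 and 534 from the wild-type libraries 1 and 2 and 381 and 246 from the TRα1+m libraries 1 and 2. Hypothalamus was taken from adult male wild-type mice and from adult male mice heterozygous for a point mutation in the thyroid hormone receptor TRα1 (TRα1+m), which lowers the receptor's affinity for its hormone. The mutation is carried in every cell of the animal, and all mice were on a C57/BL6NCr background. Each of the 4 libraries of single-nucleus RNA held nuclei pooled from 3 mice, so that a library and not a mouse or a nucleus was the replicate (n = 2 per genotype), and each experimental repeat held 1 library of either genotype.

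These nuclei were chosen by measured values, in that the sub-cluster came from the authors' clustering of expression, and 2 further conditions used transcript counts. Of the 2085 nuclei named MCH Neurons, 426 were left out for at least 1 unique molecular identifier (UMI, a counted transcript molecule) of each of 2 or more of the 6 vascular genes Flt1, Cldn5, Pecam1, Rgs5, Pdgfrb and Vtn. A further 72 were left out for 20 or more Pmch UMIs, and 5 met both conditions. The Pmch threshold fell in a gap. Of the named nuclei, 9 carried 10 to 14 Pmch UMIs, none carried 15 to 19, 2 carried 20 to 24, 4 carried 25 to 49 and 71 carried 50 or more, 48 of which came from wild-type library 2. The vascular threshold fell on a gradient, since 1388 of the retained nuclei had none of the 6 genes and 194 had exactly 1, while 105 nuclei just outside had exactly 2. Slco1a4, an organic anion transporter of brain endothelium that was not among the 6 genes, was at 7.70 counts per 1000000 UMIs of a library (CPM) in nuclei with none of them, 204 CPM in those with 1 and 1205 CPM in those with 2.

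Neurons that make melanin-concentrating hormone (MCH) lie mainly in the lateral hypothalamus and the zona incerta, where they act on feeding, energy balance and sleep. They transcribe Pmch, the gene for the hormone's precursor, at a very high level, and many also transcribe Cartpt, a feeding-related peptide, and Tacr3, the neurokinin B receptor. In nuclei prepared from frozen tissue, RNA released from broken cells enters every droplet, and abundant peptide transcripts therefore appear at low counts in cells of all types.

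The retained nuclei were neuronal by their general markers, but their Pmch level summed over all nuclei, which the rule had capped, was not above that of glia. Pmch (ENSMUSG00000035383, GRCm38 chr10:88091072-88092375, plus strand) stood at 294 and 543 CPM in the wild-type and 310 and 317 CPM in the TRα1+m libraries. Their mean of 366 ± 119 CPM (SD, n = 4) was above that of GABA neurons (279 ± 62.4) and of the left-out vascular nuclei (253 ± 55.7), and below that of the remaining Neurons_1 nuclei (783 ± 403, not capped), of astrocytes (736 ± 112) and of microglia and macrophages (914 ± 146), the last of which should lack the transcript. Because the rule capped Pmch, with 14 UMIs the highest in any retained nucleus, this level describes the choice as well as the nuclei. It also weighs deep nuclei most. The 579 nuclei of 2000 UMIs or more, a limit set after seeing the depths, held 3384960 UMIs and the 1003 shallower ones 1303077. In shallower nuclei pooled over libraries, Pmch was at 767 CPM in the retained nuclei, 743 in astrocytes and 803 in oligodendrocytes. In deeper nuclei it was at 207, 741 and 501 CPM. When every nucleus was thinned to 900 UMIs, Pmch was seen in 33.9% of the retained nuclei, in 20.2% of the remaining Neurons_1 nuclei, in 20.7% of GABA neurons, in 36.9% of astrocytes and in 39.7% of oligodendrocytes. By library the share was 28.3% and 44.2% in wild type and 28.9% and 28.9% in TRα1+m, against 42.8%, 28.3%, 46.9% and 24.7% in astrocytes. It was thus above the share in astrocytes in repeat 2 and below it in repeat 1, and it too was limited by the rule. Before thinning, the median depth was 1556 UMIs in the retained nuclei and 1881 in astrocytes. Tacr3 was at 4.80 ± 2.61 CPM, against 9.63 ± 0.664 CPM in the remaining Neurons_1 nuclei, and Cartpt was at 128 ± 95.4 against 124 ± 71.4 CPM. In contrast, Syt1 (chr10:108497650-109010982, minus strand), the calcium sensor of synaptic vesicle release, reached 1758 and 1472 CPM in the wild-type and 1954 and 2129 CPM in the TRα1+m libraries. These levels were of the order of the 2240 ± 74.8 CPM of the remaining Neurons_1 nuclei and far above the 201 ± 72.4 CPM of astrocytes. The nuclei are therefore called MCH-labelled below, after their label only.

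These nuclei held fewer transcripts than other neurons, as did the rest of the sub-cluster. Median depth was 1759 and 1344 UMIs per nucleus for wild type and 4100 and 1326 for TRα1+m, against 4038, 5399.5, 3796 and 4905 in the remaining Neurons_1 nuclei of the same libraries. TRα1+m library 1 was the exception, being deeper than its remaining neurons. Depth had a second, higher peak in this library and in wild-type library 1, so that a median alone describes these nuclei poorly. The nuclei left out of the sub-cluster were shallow as well, with a median of 2806.5 UMIs and 33.3% under 2000 for the vascular ones and 1970 UMIs and 50.6% for those with many Pmch UMIs, and their median mitochondrial contents were 2.76% and 2.14%. Nuclei under 2000 UMIs, a limit chosen after the depths had been seen, made up 58.2% and 80.3% of the MCH-labelled nuclei in wild type and 32.3% and 83.7% in TRα1+m, compared with 3.18% of the remaining Neurons_1 nuclei. Seen from the other side, 1003 of the 2254 Neurons_1 nuclei under 2000 UMIs (44.5%) were among the retained MCH-labelled nuclei, apart from those the rule left out. The MCH-labelled nuclei also held more mitochondrial RNA, with medians of 2.26% and 2.83% of UMIs in wild type and 0.817% and 2.08% in TRα1+m, against 0.841%, 1.00%, 0.742% and 0.599%. The deep TRα1+m library 1 again came closest to its remaining neurons. No cell barcode was shared between libraries among these nuclei, and 44 to 64 were shared by each pair of libraries over all annotated nuclei. Their summed depth was 1342075 and 1124674 UMIs in the wild-type libraries and 1625168 and 596120 UMIs in the TRα1+m libraries.

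**Figure D1:**
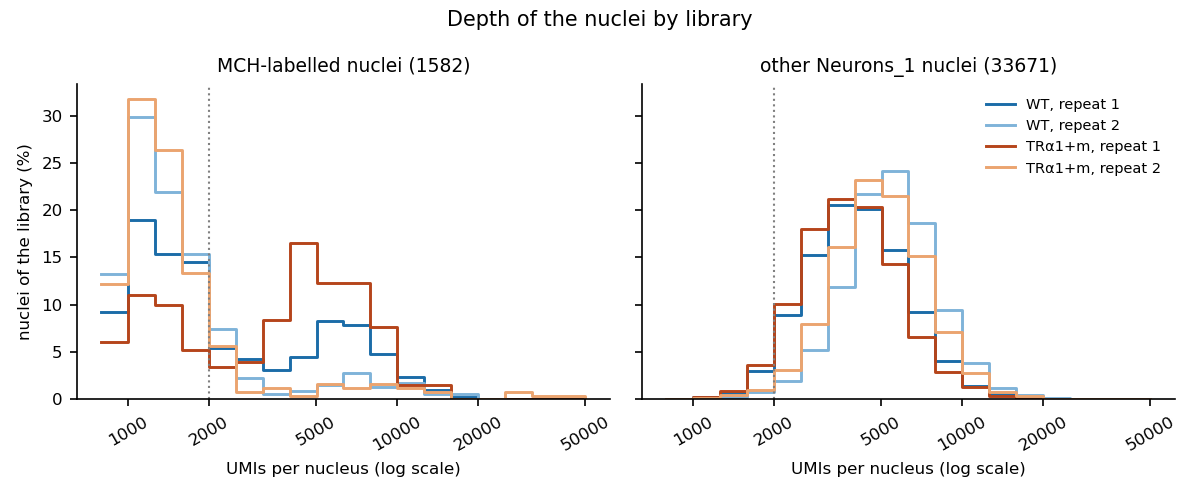
Histograms of UMIs per nucleus (log axis), as percent of the nuclei of each of the 4 libraries (lines), for the MCH-labelled nuclei (left) and the remaining Neurons_1 nuclei (right), with a dotted line at 2000 UMIs. The MCH-labelled nuclei of wild-type library 2 and TRα1+m library 2 lie mostly under 2000 UMIs, with medians of 1344 and 1326, whereas those of TRα1+m library 1 have a median of 4100.

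The neuronal part of the profile was that of hypothalamic neurons in general, at a reduced level. Across genes with at least 20 CPM, the profile correlated most with that of the GABA neurons (r = 0.912 and 0.885 in wild type, 0.934 and 0.906 in TRα1+m, over 8015 to 8700 genes of the same library), followed by Glutamatergic Neurons_1 with a mean r of 0.902. Astrocytes gave a mean r of 0.650. These correlations are across genes, which are not independent replicates, and both profiles of a pair share their library and its free RNA. Of the 8 general neuronal genes, none was higher and 6 were lower than in the remaining neurons in all 4 libraries, and Meg3, a long non-coding RNA abundant in neurons, was at 5637 ± 810 against 7719 ± 886 CPM. As background, 19.2% of 10862 genes at 10 CPM or more were higher in all 4 libraries and 19.4% were lower. Among 30 ionotropic receptor subunits 22 were lower and none higher, and among 19 synaptic adhesion genes 12 were lower and none higher. The guidance receptor Dcc stood at 1413 and 1283 CPM in wild type and 1352 and 1168 in TRα1+m, against 1805 ± 116 in the remaining neurons. The RNA-binding protein gene Rbms3 was as even, at 417, 404, 408 and 384 CPM against 575 ± 12.4. Since clustering used these genes, the differences are descriptions and were given no test. Transmitter genes did not set the nuclei apart. Gad2, which makes GABA, was at 156 ± 25.6 against 148 ± 6.65 CPM, the vesicular GABA transporter gene Slc32a1 at 60.8 ± 22.2 against 77.1 ± 38.5, and the vesicular glutamate transporter gene Slc17a6 at 131 ± 35.6 against 151 ± 36.6.

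Astrocyte transcripts accompanied the neuronal ones in every library. All 8 astrocyte genes were higher than in the remaining Neurons_1 nuclei in all 4 libraries, and their summed level was 1758 and 1557 CPM in wild type and 1788 and 1121 in TRα1+m, against 413 ± 114 in the remaining neurons, 1211 ± 311 in oligodendrocytes and 9061 ± 1931 in astrocytes. Oligodendrocytes, which are background for these genes, were at 1260, 1048, 1624 and 911 CPM by library, so that the MCH-labelled nuclei lay above them within each library but in the same range. In the left-out nuclei with 3 or more vascular genes, Slc1a2 was at 533 CPM. Slc1a2, the main glutamate transporter of astrocytes and the most abundant gene of the list, reached 638 and 525 CPM in wild type and 687 and 435 in TRα1+m, against 145 ± 34.0. Slc1a3, the second astrocytic glutamate transporter, reached 468, 181, 415 and 146 CPM against 39.3 ± 18.8. Both genes were highest in the libraries of repeat 1 in either genotype. The sodium bicarbonate cotransporter gene Slc4a4 followed the same order at 661, 296, 742 and 238 CPM, against 63.3 ± 20.6. Mertk, a receptor through which astrocytes and microglia engulf debris and which was more abundant in microglia and macrophages (878 CPM) than in astrocytes (383 CPM), was at 123 and 43.6 CPM in wild type and 113 and 31.9 in TRα1+m, against 4.03 ± 1.79, which made it 13.1 to 29.0 times higher within a library. Apoe, the astrocytic lipid carrier, was more even, at 1735, 1664, 2124 and 1766 CPM against 492 ± 183. Its mean was higher in oligodendrocytes (3030 CPM), oligodendrocyte precursors (2715 CPM) and microglia and macrophages (2938 CPM), so that it does not set astrocyte RNA apart. Among genes of at least 50 CPM, a floor that genes could pass through the MCH-labelled nuclei alone, 25 were taken for the highest ratios. As a description of this choice, 22 of them were most abundant in astrocytes and 3 in microglia and macrophages, and all 25 stayed below their level in astrocytes. Below that floor the endothelial genes Mecom (11.2 to 22.1 times higher within a library), Slco1a4 (8.92 to 23.3) and Flt1 (a gene of the rule) had ratios as high, at 10.1 to 37.5 CPM for Mecom. Of the 25 genes with the lowest ratios, among them the capped Pmch, 21 were more abundant in GABA neurons than in any glial type compared. Other neuronal types were not part of that comparison.

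**Figure D2:**
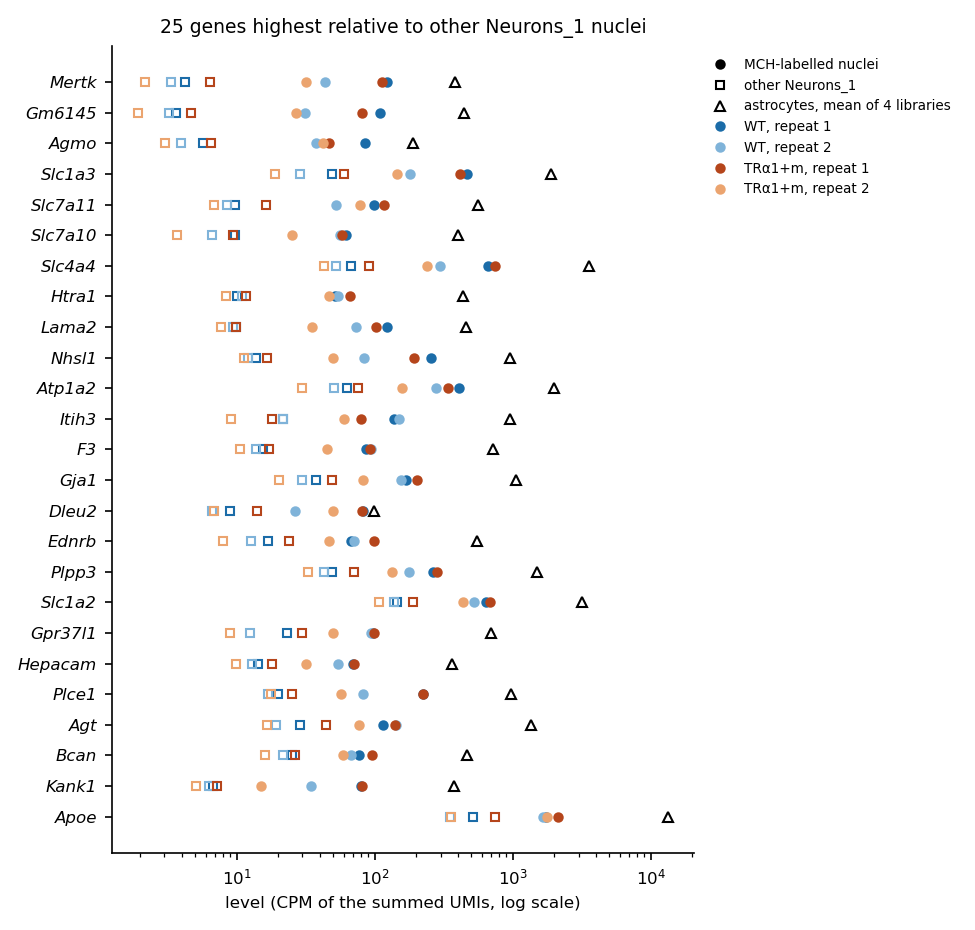
Level in CPM on a log axis of the 25 genes, among those of at least 50 CPM, highest relative to the remaining Neurons_1 nuclei, with filled circles for the MCH-labelled nuclei and open squares for the remaining Neurons_1 nuclei of each library, and triangles for the mean of astrocytes over 4 libraries. For every gene the circles lie above the squares of their own library and below the astrocytes.

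The astrocyte and neuronal genes were found in the same nuclei. With every nucleus thinned to 900 UMIs, 96.3% of the MCH-labelled nuclei had transcripts of at least 2 of the 8 neuronal genes, compared with 99.7% of the remaining Neurons_1 nuclei and 49.9% of astrocytes. At least 2 astrocyte genes were seen in 38.0% and 32.8% of the nuclei in wild type and 40.7% and 25.2% in TRα1+m, or 34.9% in all (exact 95% binomial interval 32.5 to 37.3, counting error only), against 6.0% of the remaining Neurons_1 nuclei. Both conditions were met by 531 nuclei (33.6%), whereas 993 met only the neuronal and 21 only the astrocytic condition. Without thinning, 63.7% carried at least 2 astrocyte genes. The astrocyte share was 35.7% in nuclei under 2000 UMIs and 33.5% in deeper ones, against 13.5% and 5.75% of the remaining Neurons_1 nuclei in the same ranges. Within libraries it was 38.0% and 38.1% in shallow and deeper nuclei of wild-type library 1, 34.5% and 25.7% in wild-type library 2, 49.6% and 36.4% in TRα1+m library 1 and 27.2% and 15% in TRα1+m library 2, so that it was lower in the deeper nuclei of 3 libraries. Oligodendrocyte genes were seen in 36.3% and 33.5% of the nuclei in wild type and 15% and 29.7% in TRα1+m, against 7.07% of the remaining neurons, and in 38.2% of nuclei under 2000 UMIs and 13.6% of deeper ones. Genes of oligodendrocyte precursors (6.38% against 5.68%), microglia (1.45% against 0.252%) and tanycytes (2.65% against 0.763%) were found in few nuclei.

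**Figure D3:**
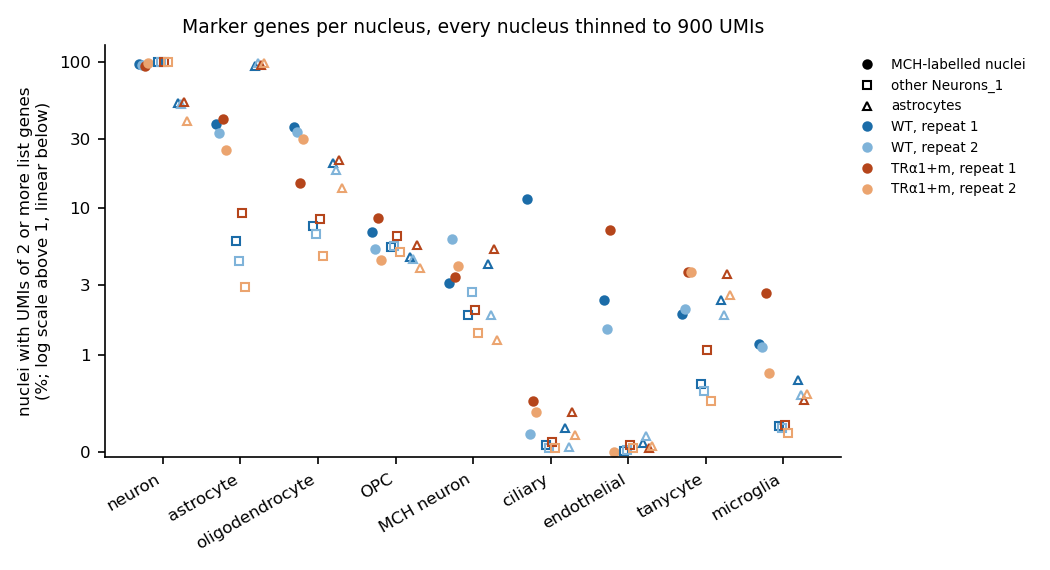
Percent of nuclei, thinned to 900 UMIs each, with at least 2 genes of each cell type list (axis logarithmic above 1%, linear below), 1 point per library, in the MCH-labelled nuclei (circles), the remaining Neurons_1 nuclei (squares) and astrocytes (triangles). Astrocyte genes are found in 25.2% to 40.7% of the MCH-labelled nuclei, and oligodendrocyte genes in 15% to 36.3%.

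Small groups within the MCH-labelled nuclei carried genes of other cell types, and those with ciliary or endothelial genes came mostly from 1 library each. Genes of motile cilia, a list drawn up after the values had been seen, were present in 105 nuclei (at least 2 of Cfap299, Dnah12, Dnah6, Dnah3, Spag17, Cfap43, Wdr49 and Tmem212, without thinning). Of these, 85 were in wild-type library 1, where they made up 20.2% of the nuclei. Wild-type library 2 and TRα1+m libraries 1 and 2 held 2, 14 and 4 (0.375%, 3.67% and 1.63%). In GABA neurons the share was 1.41% and 0.831% in wild type and 1.95% and 0.758% in TRα1+m. In Glutamatergic Neurons_2 it was 3.12%, 2.82%, 4.35% and 2.57%. Only wild-type library 1 was thus above both. In the 105 nuclei the ependymal list summed to 361 CPM, against 71.9 CPM over all MCH-labelled nuclei. Of this sum 171 CPM came from Tmem212, which also served to choose the nuclei, so that the sum in part restates the choice. Rarres2 was at 120 CPM and Foxj1, the factor that directs formation of motile cilia, at 9.51 CPM. In tanycytes, which line the third ventricle, Tmem212 was at 204 and Rarres2 at 188 CPM. Syt1 was at 1867 CPM in the nuclei with ciliary genes, close to its level in all MCH-labelled nuclei. Endothelial genes were found in 61 nuclei, 37 of which were in TRα1+m library 1. Flt1, Cldn5 and Pecam1 of that list were genes of the rule, so that this count shows only what the rule left. For vascular genes the rule had left out 50 and 134 nuclei in wild type and 155 and 87 in TRα1+m. In the 61 nuclei the neuronal list summed to 9043 CPM, against 14126 CPM in the nuclei with ciliary genes. Genes of the vascular and leptomeningeal cells were found in 16 nuclei (4, 7, 1 and 4 by library), with a median of 5572 UMIs per nucleus. The annotated nuclei had been filtered on a doublet score by the authors, and no further doublet call was made here. Nuclei of different cells in the same droplet, free RNA and a shared profile cannot be told apart.

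**Figure D4:**
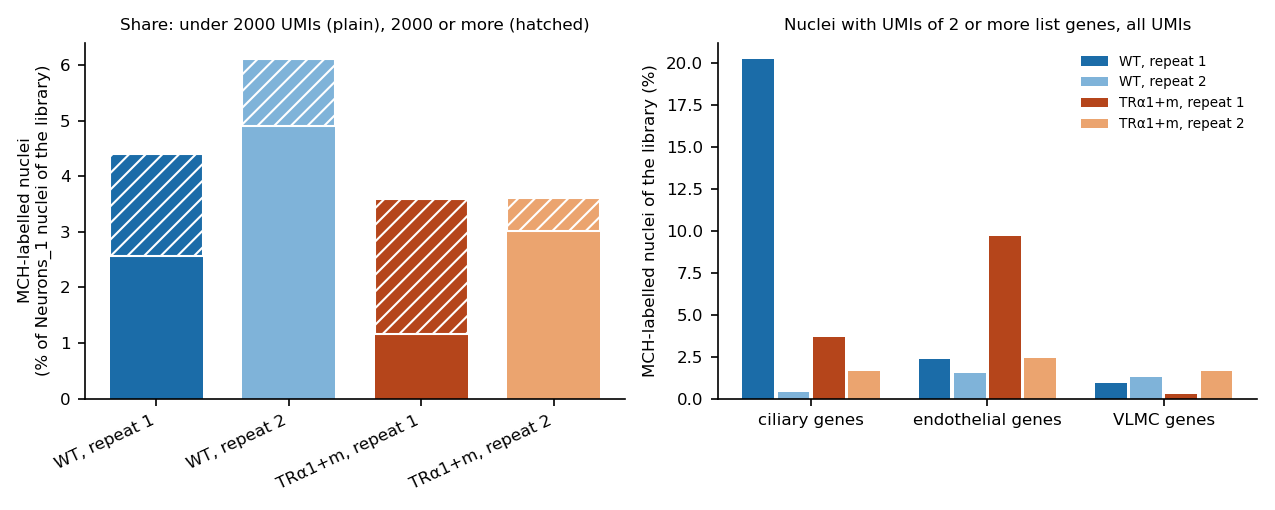
Left, MCH-labelled nuclei as percent of the Neurons_1 nuclei of each library, split into those under 2000 UMIs (plain) and deeper ones (hatched). Right, percent of the MCH-labelled nuclei of each library carrying at least 2 ciliary, endothelial or vascular and leptomeningeal (VLMC) genes, where nuclei with ciliary genes reach 20.2% in wild-type library 1, and nuclei with endothelial genes reach 9.71% in TRα1+m library 1. The endothelial share was limited by the rule, which used Flt1, Cldn5 and Pecam1 of that list.

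Over the 4 libraries together, most transcripts of Oxt, Avp, Hcrt and Pomc came from a handful of nuclei, unevenly between libraries. Oxt, the oxytocin precursor gene, stood at 401 and 2864 CPM in wild type and 929 and 252 CPM in TRα1+m, but 14 nuclei with 20 or more Oxt UMIs held 83.5% of its UMIs, and 1 nucleus of TRα1+m library 1 held 1181. Without those 14 nuclei the levels were 295, 149, 184 and 57.3 CPM, highest in wild-type library 1 in place of wild-type library 2. Avp, the vasopressin precursor gene, was at 323, 1563, 236 and 1033 CPM, and 13 nuclei held 66.9% of its UMIs. Hcrt, which encodes orexin, was at 159, 1521, 142 and 273 CPM, and 10 nuclei, all in wild-type library 2, held 61.2%. Pomc, the precursor of melanocortins, was at 24.6, 229, 14.8 and 63.7 CPM, and 4 nuclei held 66.8%. For the other peptide genes, nuclei with 20 or more UMIs held 0% (Agrp and Npy) to 30.4% (Cartpt) over all libraries, although in TRα1+m library 2 alone 1 nucleus held 52.4% of the Sst UMIs. For Avp they held 13.6% in wild-type library 1 and 0% in TRα1+m library 1, and for Oxt 26.8% in wild-type library 1. With the threshold of 20 UMIs, chosen after the counts had been seen, 50 nuclei (3.16%) exceeded it for any of 11 peptide genes, against 5.46% of the remaining Neurons_1 nuclei. By library these were 4 and 35 nuclei in wild type and 2 and 9 in TRα1+m, so that most were in repeat 2.

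The share of MCH-labelled nuclei among Neurons_1 nuclei did not differ detectably between genotypes. It was 4.40% and 6.10% in wild type (5.25% ± 1.2, SD, n = 2) and 3.59% and 3.60% in TRα1+m (3.60% ± 0.0120). Both TRα1+m libraries were below both wild-type libraries, by 1.66 percentage points on average. This order depended on the nuclei left out. The whole sub-cluster, with both the vascular nuclei and those with many Pmch UMIs, made up 4.95% and 8.22% of Neurons_1 in wild type and 5.11% and 5.13% in TRα1+m. The exact two-sided permutation test gave p = 0.333, the smallest value that 2 against 2 libraries allow. In edgeR's quasi-likelihood test over 16 parts of Neurons_1 the log2 difference was -0.55 (SE 0.37, adjusted p = 0.987). Nuclei under 2000 UMIs made up 2.56% and 4.90% of Neurons_1 in wild type and 1.16% and 3.02% in TRα1+m, and deeper nuclei 1.84%, 1.2%, 2.43% and 0.586%. The deeper nuclei alone were thus fewer in repeat 2 than in repeat 1 of either genotype.

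Experimental repeat was tested because it separated the libraries in depth and composition. Neuropeptide and mitochondrially encoded genes were more often higher than lower in repeat 2, and astrocyte and synaptic adhesion genes were more often lower than higher. Of 11594 genes, 2650 (22.9%) changed in a model with genotype and repeat (edgeR, adjusted p under 0.05), of which 1412 (12.2%) were higher and 1238 (10.7%) lower in repeat 2. Avp rose by a log2 difference of 2.10 (SE 0.14, adjusted p = 7.40e-50). Without its 13 nuclei of 20 or more UMIs, Avp was at 284 and 236 CPM in repeat 1 and at 186 and 152 in repeat 2, so that its direction turned. Ubb, a ubiquitin gene, was at 465 and 381 CPM in the libraries of repeat 1 and at 1480 and 1150 in those of repeat 2 (log2 1.53, adjusted p = 4.79e-28), and Rpl3, a ribosomal protein gene, at 177 and 124 against 557 and 431 CPM (log2 1.62). In the other direction, Malat1, an abundant nuclear RNA, was at 40500 and 36200 CPM in repeat 1 and 15000 and 20300 in repeat 2 (log2 -1.23, adjusted p = 1.98e-34). Trpm3, a cation channel gene, was at 2400 and 2330 CPM against 920 and 881 (log2 -1.49, adjusted p = 1.24e-30), and Gpc5, a heparan sulfate proteoglycan gene of astrocytes, at 2220 and 1880 against 963 and 627 CPM. For each of these genes the libraries of a repeat lay together and apart from those of the other, whatever their genotype.

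By group, 10 of the 18 neuropeptide genes tested rose in repeat 2 and 1 fell, and 8 of 13 mitochondrial genes rose and 1 fell. The 10 include Avp, whose direction turned without a few nuclei, and Pomc. Without its nuclei of 20 or more UMIs, Pomc was at 24.6 and 46.0 CPM in wild type and 14.8 and 15.2 in TRα1+m. Cartpt, Gal, Tac1 and Trh stayed higher in repeat 2 of both genotypes without such nuclei. Among 8 astrocyte genes 4 fell, including Slc1a3 (log2 -1.53, SE 0.15) and Slc1a2 (log2 -0.56, SE 0.14), and Aldoc rose. All 3 ependymal genes tested fell, of which Rarres2 was at 57.4 and 8.89 CPM in repeats 1 and 2 of wild type and at 29.5 and 30.2 in TRα1+m, and Tmem212 at 41.7 and 4.45 and at 14.8 and 13.4, so that wild-type library 1, which holds most nuclei with ciliary genes, carried the difference of both genes. In addition, 8 of 19 synaptic adhesion genes fell while 2 rose. The share of nuclei under 2000 UMIs moved with repeat in the same libraries, at 58.2% and 32.3% in repeat 1 against 80.3% and 83.7% in repeat 2. In those nuclei the mitochondrial genes summed to 30655 and 24312 CPM in repeat 1 and 29429 and 23653 in repeat 2. Slc1a2 was at 544 and 544 against 551 and 523 CPM there. In deeper nuclei the mitochondrial sums were 9972 and 6676 against 15992 and 8135 CPM, and Slc1a2 was at 668 and 702 against 501 and 363. The part of depth in the repeat differences was not tested. Among the 1003 nuclei under 2000 UMIs 215 of 6429 genes changed, 58 of them higher and 157 lower in repeat 2, and among the 579 deeper ones, of which TRα1+m library 2 held 40, 42 of 9782 genes changed, 25 higher and 17 lower. At an unadjusted p under 0.05 there were 1011 genes in the shallow and 1631 in the deeper nuclei. The counts of calls come from fits of unlike form and are not compared. DESeq2 called 370 genes in the same design. The model left 1 residual degree of freedom. The spread was pooled wholly across genes by edgeR in all MCH-labelled nuclei and in those under 2000 UMIs, but not in the deeper ones. In the remaining Neurons_1 nuclei 5878 of 19703 genes changed with repeat in the same edgeR design, where the spread was not pooled wholly across genes. There Avp rose by a log2 difference of 0.67 (SE 0.09), and Malat1 did not pass at -0.90 (SE 0.32, adjusted p = 0.288). In the MCH-labelled nuclei Malat1 was at -1.23 (SE 0.09), with an SE from a fit of another form.

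**Figure D5:**
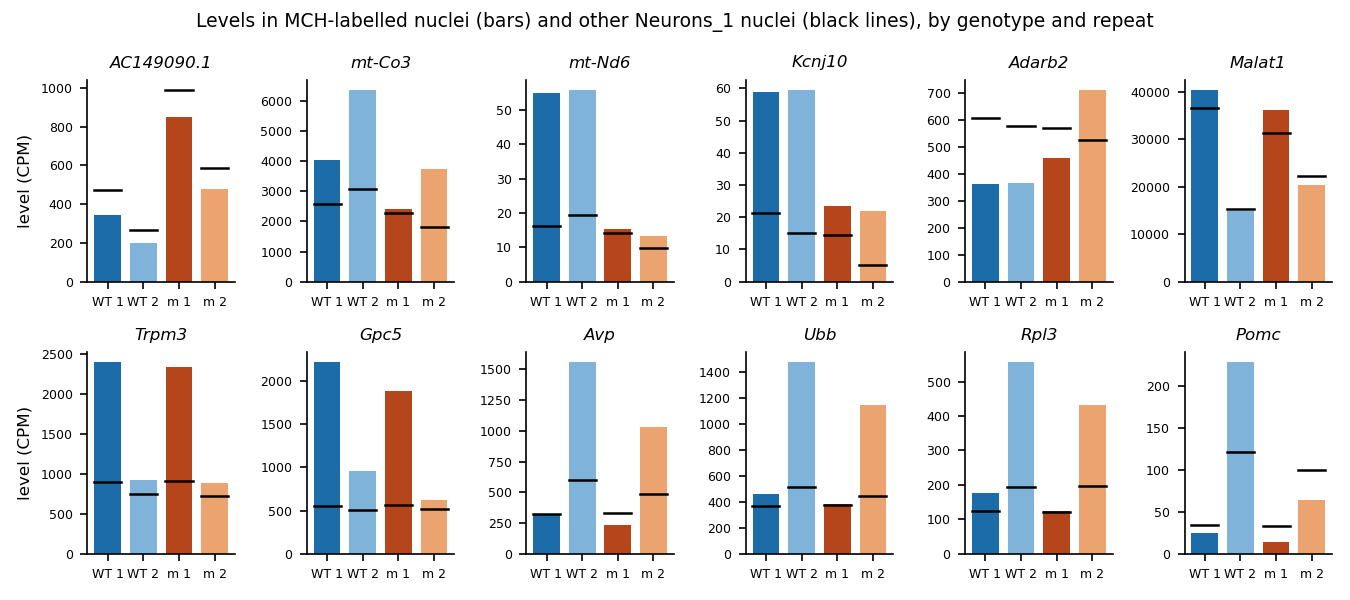
Level in CPM of 12 genes in the MCH-labelled nuclei of the 4 libraries (bars, WT for wild type and m for TRα1+m, with the repeat number), beside the level in the remaining Neurons_1 nuclei of the same library (black lines). AC149090.1 is higher and mt-Co3 and mt-Nd6 are lower in TRα1+m within both repeats.

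Genotype changed no gene past the threshold in the MCH-labelled nuclei when the libraries were compared without regard to repeat. Of 11594 genes, 0 (0%) were called by edgeR at an adjusted p under 0.05 and 115 had an unadjusted p under 0.05, while DESeq2 called 0 and gave 29. For 2821 genes (24.3%) the 2 groups did not overlap, 1677 of them higher and 1144 lower in TRα1+m. Any gene separates fully in a fraction of 0.333 of the 6 possible splits into 2 against 2 libraries. This share by itself therefore shows no difference between genotypes. The smallest p-value belonged to mt-Nd6, a mitochondrially encoded subunit of respiratory complex I, at 55.1 and 56.0 CPM in wild type and 15.4 and 13.4 in TRα1+m (log2 -1.93, SE 0.37, adjusted p = 1.00). Kcnj10, the inward rectifier potassium channel gene of astrocytes, was at 58.9 and 59.6 CPM against 23.4 and 21.8. Nkx6-2, a homeobox gene of the oligodendrocyte lineage, was at 19.4 and 36.5 against 4.92 and 5.03 CPM. Pvalb, the gene for the calcium-binding protein parvalbumin, was at 13.4 and 24 against 2.46 and 6.71 CPM, and Syt2, a synaptotagmin of fast-releasing synapses, at 20.1 and 26.7 against 8.0 and 8.39 CPM. In all 5 genes the TRα1+m libraries were below both wild-type libraries, and counts were low, with 74, 63, 25 and 8 UMIs of mt-Nd6 in the 4 libraries. All 5 passed when the repeat was a block in edgeR (adjusted p = 2.90e-07 for mt-Nd6, 0.000177 for Kcnj10, 0.000290 for Nkx6-2, 0.00911 for Pvalb and 0.0454 for Syt2), and none of them in DESeq2 with that block. Of the 20 genes with the smallest p-values, Eepd1, AC149090.1 and Gm12526 were higher in TRα1+m and the remaining 17 were lower.

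Comparing genotypes within repeats gave a different count. With the experimental repeat as a block, 160 of 11594 genes (1.38%) passed the threshold in edgeR, 17 (0.147%) higher and 143 (1.23%) lower in TRα1+m. The strongest was AC149090.1, a protein-coding gene on an unplaced scaffold, at 344 and 197 CPM in wild type and 849 and 476 in TRα1+m (log2 1.27, SE 0.14, adjusted p = 5.32e-15). It was higher in TRα1+m in both repeats, and its level in the remaining Neurons_1 nuclei of the same libraries was 471, 266, 991 and 585 CPM. This fit also left 1 residual degree of freedom with the spread pooled wholly across genes. DESeq2 with the same block called 4 genes, AC149090.1, mt-Co1, mt-Co2 and mt-Co3, and in edgeR the block called 4 in nuclei under 2000 UMIs (Pomc, Cfap299, Meis2 and Sphkap, 2 of them among the 160) and 0 in deeper nuclei, with 360 at an unadjusted p under 0.05. AC149090.1 was thus called in neither range of depth. These fits held 1003 and 579 nuclei, and in the deeper ones the spread was not pooled wholly across genes. A missing call therefore does not show whether its difference held.

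Mitochondrial transcripts were the list with most calls in the blocked comparison by edgeR, and most of these calls were not made by DESeq2 or within ranges of depth. Of the 13 mitochondrially encoded genes, 12 fell in TRα1+m and none rose, with a median log2 difference of -0.71, against a median of -0.005 over all genes tested. DESeq2 with the same block called 3 of them, and edgeR with the block called none of them in nuclei under 2000 UMIs or in deeper nuclei taken alone, which hold fewer nuclei. The fitted differences were similar in DESeq2, at -0.78 for mt-Co3, -0.77 for mt-Atp6 and -1.97 for mt-Nd6. The cytochrome c oxidase subunit gene mt-Co3 was at 4030 and 6370 CPM in wild type and 2420 and 3730 in TRα1+m (log2 -0.77, SE 0.11, adjusted p = 1.38e-08), so that the groups did not overlap. The ATP synthase subunit gene mt-Atp6 was at 1940 and 4240 against 995 and 2930 CPM, where the groups overlapped and the order held only within repeats. Among single nuclear genes called were Chchd10, at 208 and 454 against 138 and 216 CPM with overlapping groups (log2 -0.85, adjusted p = 2.41e-05), and Atp5j, at 148 and 221 against 89.2 and 101 CPM (log2 -0.93). Median mitochondrial content per nucleus was lower in TRα1+m than in wild type within both repeats. So was the median ribosomal protein content, at 1.74% and 3.31% in wild type and 1.21% and 2.21% in TRα1+m. The mitochondrial genes also summed lower within both repeats in the remaining Neurons_1 nuclei, at 9121 and 11219 against 8067 and 7310 CPM. The same held in oligodendrocytes (23118 and 24446 against 19660 and 17883 CPM). In astrocytes they were lower in repeat 2 only (20392 and 20008 against 20535 and 15145 CPM). The share of nuclei under 2000 UMIs was lower in TRα1+m in repeat 1 (58.2% against 32.3%) and not in repeat 2 (80.3% against 83.7%), and its part in the result was not tested. The counts by depth above do not measure it, as those fits held fewer nuclei and did not pool the spread alike. By level, the mitochondrial genes summed to 30655 and 29429 CPM in wild type and 24312 and 23653 in TRα1+m in nuclei under 2000 UMIs. In deeper nuclei the sums were 9972 and 15992 against 6676 and 8135 CPM. They were thus lower in TRα1+m within both repeats in either range of depth. mt-Co3 and mt-Atp6 also belong to a list of 7 genes that the study named in neurons from these same samples, of which 1 rose and 2 fell here, so that this count is not independent evidence of their direction.

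Beyond the mitochondrial genes, the blocked comparison touched few of the lists. Among neuropeptides Avp, Nts and Pomc fell and 15 of the 18 tested did not pass, where 1.23% of all genes fell and 0.147% rose. Pomc fell by 1.49 on the log2 scale (adjusted p = 8.52e-07), but 4 nuclei held 66.8% of its UMIs, and 13 nuclei held 66.9% of those of Avp. Mbp (log2 -0.55, SE 0.14) and Mobp (log2 -0.72, SE 0.20), both structural genes of myelin, fell among 8 oligodendrocyte genes, and no gene of the astrocyte list of 8 passed. Outside that list, Kcnj10 and Itih3, which is most abundant in astrocytes, fell (log2 -1.39 and -1.0). Col1a1, a fibrillar collagen, fell from 37.3 and 8.89 CPM to 3.08 and 5.03 CPM, with wild-type library 1 far above the rest. Among the genes that rose were Adarb2, an RNA-editing family member and interneuron marker (360 and 365 against 458 and 711 CPM), the axon guidance ligand Slit3 (111 and 119 against 160 and 233 CPM) and the lipid phosphatase-related Plppr1 (106 and 88.9 against 153 and 178 CPM). Crhbp, which binds corticotropin-releasing hormone, was at 7.45, 8.0 and 8.61 CPM in 3 libraries and at 68.8 in TRα1+m library 2, which alone carried its difference. Of 19 synaptic adhesion genes none passed. Slc6a3, the dopamine transporter gene, fell among 4 monoamine genes, Hsp90aa1 among 5 heat shock genes and Cfap299 among 8 ciliary genes, while Snhg11 rose among 6 nuclear long non-coding RNAs. Wild-type library 1 held 85 of the 105 nuclei with ciliary genes. The ciliary list summed to 380 and 56.0 CPM in wild type and 95.4 and 185 in TRα1+m. It was thus lower in TRα1+m in repeat 1 and higher in repeat 2. In all, 10 of the 33 lists other than the ciliary one held a called gene and 23 held none, the latter including the general neuronal, GABA, glutamate, orexin, tanycyte, ependymal, microglial, macrophage, endothelial, choroid plexus, T cell, immediate early and region transcription factor lists. The 3 mural genes tested, Rgs5, Pdgfrb and Vtn, and Flt1 of the endothelial list were restricted by the rule, so that nothing can be read from the mural list. None of the 6 pituitary genes was high enough to be tested. Of the genes used to choose the nuclei, whose values the rule restricted, Cldn5 and Pecam1 were too low to be tested and the rest did not pass, with Pmch at log2 -0.35 (adjusted p = 0.280).

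Genes of thyroid hormone action were measured because the mutated receptor belongs to them. Thra, which encodes TRα1 and carries the mutation, was at 128 and 222 CPM in wild type and 84.3 and 138 in TRα1+m, and it fell only in the blocked comparison (log2 -0.67, SE 0.17, adjusted p = 0.0128, edgeR). Counts of a point-mutated gene do not check the genotype labels. Thrb, the other receptor gene, was at 278 and 173 CPM against 255 and 223 CPM and did not pass (log2 0.07, SE 0.15). Of 11 receptor and cofactor genes tested Thra alone passed, and none of 5 transport and metabolism genes or 7 response genes did. Klf9, a transcription factor induced by the hormone, was at 67.1 and 72.0 against 57.8 and 48.7 CPM (log2 -0.37, SE 0.23, adjusted p = 0.630). Slco1c1, a thyroxine transporter of astrocytes and brain endothelium, was at 41.7 and 19.6 CPM in wild type and 70.2 and 13.4 in TRα1+m, against 3.53 ± 1.97 in the remaining Neurons_1 nuclei. It followed the astrocyte genes in being higher in the MCH-labelled nuclei of all 4 libraries.

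Whether the genotype difference of the MCH-labelled nuclei differed from that of the remaining Neurons_1 nuclei was tested as an interaction. No gene of 19212 (0%) passed in edgeR, with 336 at an unadjusted p under 0.05. With the repeat block 22 genes (0.115%) passed, 10 with a higher and 12 with a lower difference in the MCH-labelled nuclei. This fit too left 1 residual degree of freedom with the spread pooled wholly across genes, and DESeq2 was not run for it. Adarb2 had the smallest p-value (log2 0.77, SE 0.12, adjusted p = 1.24e-06), but did not pass without the block (log2 0.78, SE 0.22). In the remaining neurons it was at 605 and 576 CPM in wild type and 568 and 525 in TRα1+m. Ptgds, the prostaglandin D synthase gene, was at 247 and 224 against 300 and 267 CPM in the MCH-labelled nuclei and at 161 and 73.6 against 142 and 35.7 CPM in the remaining ones (log2 0.83, SE 0.13). mt-Nd6 also passed (log2 -1.46, SE 0.34, adjusted p = 0.0244), with 16.1 and 19.5 against 14.3 and 9.86 CPM in the remaining neurons. For AC149090.1 the difference between the populations was log2 0.20 (SE 0.21, adjusted p = 1.00), and for mt-Co3 it was -0.28 (SE 0.26), both without the block.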

How the data were processed

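Nuclei of frozen hypothalamus were profiled with 10x Genomics chemistry, and per the labels the reads were processed with Cell Ranger 5.0.1 on mm10 and with Seurat. The deposited matrices hold raw UMI counts per gene and barcode, not normalized, and the authors' annotation gives a main cluster and a sub-cluster for 56386 nuclei. The deposited nuclei had at least 901 UMIs and 701 genes and at most 5.00% mitochondrial UMIs. The authors removed batch differences between repeats before sub-clustering. They had also been filtered on a doublet score by the authors.

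Counts were summed over nuclei per library and tested with edgeR 4.0.16 (R 4.3.3; quasi-likelihood, robust, TMM factors, filterByExpr, Benjamini-Hochberg adjustment over all genes), with DESeq2 1.42.0 as an alternative. CPM were computed from the summed UMIs of each library, and SDs are between libraries. Marker shares were taken after thinning each nucleus to 900 UMIs with a fixed seed. Levels are not per length. Named genes were the called genes of a comparison, filled to the 20 smallest p-values (5 per direction for repeat), the most abundant and called genes of 33 lists (269 genes), the 25 highest and 25 lowest ratios to the remaining Neurons_1 nuclei, and the genes of the rule. Genes called only with a block were named after their values were seen. The members and lists were chosen with earlier results of these data known.

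The repeat number pairs the libraries, because each repeat held both genotypes. The differences between repeats in either genotype had the same sign for 71.7% of 11594 genes (r = 0.544). On simulated counts with 100 genes changed at each size, the genotype test recovered 7 at a log2 change of 1 and 61 at 2 with 0 false calls, the blocked genotype test 50 and 97 with 6 false calls, the repeat test 59 and 92 with 10, and the interaction test 3 and 40 with 1. Some results are not reported here.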

Additional observations from a re-analysis of the deposited data

How the results depend on the processing

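The number of genotype calls depended on the treatment of the repeat, the filter and single libraries. Against 0 genes, edgeR called 160 with the replicate block, 146 with the block and the other setting of its legacy argument, 4 with the block in DESeq2, 136 with the block without nuclei carrying ciliary or endothelial genes, 4 with the block in nuclei under 2000 UMIs and 0 with the block in deeper nuclei. Without a filter on low counts it called 1 (Ibsp). Leaving out a library gave 1 to 5 calls, namely Hcrt, Pomc, Oxt, Slc6a3 and Nkx6-2 without wild-type library 1, Ibsp and Col1a1 without wild-type library 2, Crhbp without TRα1+m library 1, and Slc6a3, Dcn and Pomc without TRα1+m library 2, in fits that take the lone library to vary like the others. The interaction gave 22 calls with the replicate block and 0 to 3 when a library was left out (Hcrt, Oxt and Pomc without wild-type library 1, Oxt without wild-type library 2, Ptgds and Gm3764 without TRα1+m library 1). The repeat comparison gave 370 calls in DESeq2, 215 under 2000 UMIs and 42 above. With repeat in the model, edgeR pooled the spread wholly across genes under 2000 UMIs but not above. Counts by depth are therefore not comparable. The cause of these differences in counts was not tested. Leaving out a library could not be run for the repeat, as no residual degree of freedom remains. The share of Neurons_1 stayed short of the threshold in every alternative, including the replicate block (log2 -0.53, SE 0.22, adjusted p = 0.800), and its log2 difference was negative in each, but only -0.01 (SE 0.78) in nuclei of 2000 UMIs or more. Settings by depth, by ciliary and endothelial genes, the interaction block and the blocked repeats of other settings were added after the data had been seen. With 2 libraries a group, small changes are not detectable.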

Other observations

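Tcf7l2, a transcription factor of thalamic neurons and newly formed oligodendrocytes that astrocytes also transcribe, was at 131 and 40.0 CPM in wild type and 189 and 35.2 in TRα1+m, against 30.3 ± 15.4 in the remaining Neurons_1 nuclei and 422 ± 96.3 in astrocytes. Ebf1, a factor of several brain regions and of vascular cells, was at 136 and 41.8 CPM in wild type and 107 and 45.3 in TRα1+m, against 91.1 ± 32.4 in the remaining nuclei. Both were higher in the libraries of repeat 1, and both were called in the repeat comparison. Ptprc, the leukocyte antigen CD45, was at 8.20, 8.0 and 12.3 CPM in 3 libraries and at 0 in TRα1+m library 2, against 281 ± 53.3 CPM in microglia and macrophages. Mrc1, a receptor of perivascular macrophages, was at 6.93 ± 2.53 CPM, against 0.456 ± 0.117 in the remaining Neurons_1 nuclei.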
